A study of Mus musculus with 32 samples.

Results

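The 10 genes described here encode enzymes that turn cholesterol into bile acids and couple the bile acids to amino acids in the liver. They were taken by symbol from the expression table, which holds 20821 symbols, and all 10 were measured. The members are Cyp7a1, Cyp8b1, Hsd3b7, Akr1d1, Cyp27a1, Cyp7b1, Cyp39a1, Amacr, Slc27a5 and Baat. RNA-seq was performed on livers of 4 Gclc WT mice, which carried floxed Gclc alleles and no recombinase (Gclc f/f), and 4 Gclc KO mice, which carried the same alleles with Rosa26-CreERT2 (Gclc f/f Rosa26-CreERT2). The product of Gclc is the catalytic part of glutamate-cysteine ligase, which performs the first step of glutathione (GSH) synthesis. CreERT2 at the Rosa26 locus acts in the whole body once tamoxifen is given, so loss of Gclc was not limited to hepatocytes. Per the labels, adult mice of both genotypes were injected intraperitoneally with tamoxifen at 150 mg/kg over 5 days, and livers were taken 14 days afterwards. No group carried CreERT2 without floxed Gclc, so an effect of the recombinase and an effect of Gclc loss cannot be told apart. Each mouse was measured in 4 libraries, whose values were averaged into 1 level per mouse. The table is named as normalized counts, but its library totals are nearly equal and close to those of TPM, a unit that corrects for transcript length and library size, and the values were taken as TPM on these grounds.

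Hepatocytes make bile acids by several routes. In the classic route, CYP7A1 places the first hydroxyl group on cholesterol and sets the rate. CYP8B1 adds a hydroxyl group that directs the product towards cholic acid, and HSD3B7 and AKR1D1 reshape the steroid rings. In the alternative routes, CYP27A1 first oxidizes the side chain, and the oxysterol hydroxylases CYP7B1 and CYP39A1 act on the resulting or related oxysterols. The side chain is then shortened in peroxisomes, which needs the racemase AMACR. Bile acids that return from the gut are activated with coenzyme A by SLC27A5, and BAAT joins bile acids to taurine, the main partner in mice, or to glycine.

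Gclc itself (Entrez 14629) was 82.3, 114.1, 77.8 and 138 TPM in Gclc WT mice 1 to 4 and 26.9, 16.1, 18.6 and 26.8 TPM across Gclc KO mice 1 to 4. Every Gclc KO mouse was below every Gclc WT mouse (log2 fold change −2.17, limma adjusted p = 0.000612). Liver identity was clear in all mice, as Alb, which encodes albumin, ranged from 46260 to 111700 TPM. Xist, which is expressed from the inactive X chromosome of females, was at 25.8 TPM in Gclc WT 3, 30.2 TPM in Gclc KO 2 and 22.8 TPM in Gclc KO 3, and at most 0.0225 TPM in the other 5 mice. The genotypes therefore differed in the number of mice with Xist, and the members are given below also with Xist as a covariate or without these mice wherever a call or a fold change moved. Gclc WT 3 stood apart from the other Gclc WT mice beyond Xist. Its acute phase genes summed to 100500 TPM against 13980 to 17620 TPM in the others, its Kupffer cell markers to 823 TPM against 300.5 to 459 TPM, and its neutrophil and monocyte markers to 447.5 TPM against 77.6 to 148 TPM. Library totals lay between 999315 and 999534 TPM, and the sequencing depth is unknown because TPM do not keep it.

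Of the 10 members, 1 rose and 3 fell in Gclc KO livers, and 6 did not pass the test (limma on log2(TPM + 1), Benjamini-Hochberg adjusted p under 0.05). Cyp39a1 rose, and Cyp7a1, Cyp8b1 and Amacr fell. Over the 11284 genes tested, 12.8% were called higher, 8.61% lower and 21.4% in either direction. The median log2 fold change of the members was −0.58, against 0.09 over all genes tested. The genotypes did not overlap for 6 members, higher for Cyp39a1 and Baat and lower for Cyp8b1, Akr1d1, Hsd3b7 and Amacr, while 24.7% of all genes tested had no overlap (14.5% higher and 10.2% lower). For these 6 members a two-sided exact permutation test, which exchanges mice between the genotypes in all 70 possible ways, gave p = 0.0286, the smallest it can give. Genotypes that do not overlap always give this p, so it adds nothing to the lack of overlap. It was not adjusted over the members. The number of members lower was 6 with scaling by the median of ratios or by the trimmed mean of M values, and 1 without a filter on low values. These scalings also turned the balance over all genes, from 1439 higher and 972 lower to 1242 and 1412 with the median of ratios and to 1190 and 1474 with the trimmed mean. Over the members the SD among the 4 libraries of a mouse, as a median over mice, was 0.0267 to 0.103 on the log2 scale, against 0.0330 to 0.969 among Gclc WT mice and 0.146 to 2.35 among Gclc KO mice, so the spread lay between mice and not between libraries for most members. The fall of a liver mRNA can come from fewer cells of a type or from less RNA per cell, which cannot be told apart in bulk tissue.

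**Figure D1:**
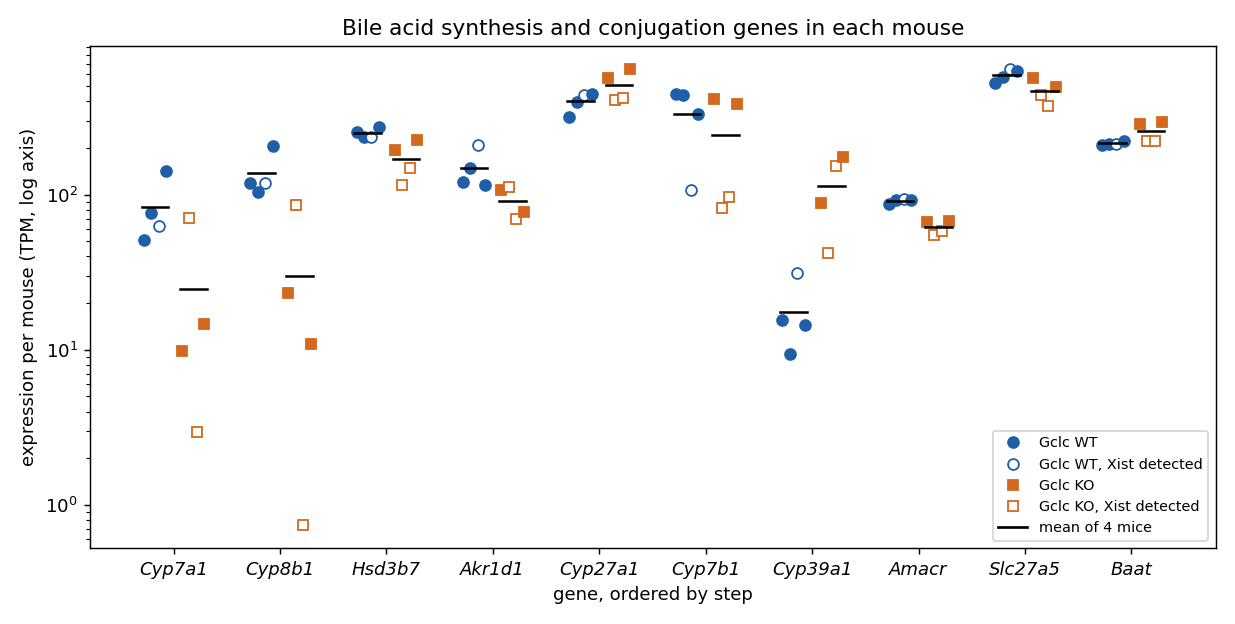
Expression of the 10 members in each mouse (TPM, log axis), with Gclc WT mice as circles, Gclc KO mice as squares, open symbols for the 3 mice with Xist and a bar at the mean of 4 mice. Cyp7a1 and Cyp8b1 spread widely among Gclc KO mice, from 2.94 to 70.8 TPM and from 0.738 to 85.4 TPM, whereas Amacr stayed within 55.3 to 67.9 TPM, below every Gclc WT mouse.

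The classic route held the largest falls. Cyp7a1 (Entrez 13122), the rate-limiting enzyme, was 51.1, 75.9, 63.3 and 143 TPM in Gclc WT mice 1 to 4 and 9.83, 70.8, 2.94 and 14.7 TPM across Gclc KO mice 1 to 4. Gclc KO 1, 3 and 4 lay below every Gclc WT mouse, whereas Gclc KO 2 lay within the Gclc WT range. The mean went from 83.4 ± 41.1 to 24.6 ± 31.2 TPM (SD, n = 4 each). On the log2(TPM + 1) scale Cyp7a1 fell by 2.40 (SE 0.74, limma adjusted p = 0.0453), while the exact permutation test gave p = 0.0857. The call was close to the threshold and was made in 9 of 25 alternative settings. It was lost without Gclc WT 1, 2, 3 or 4 (limma adjusted p = 0.0745, 0.0982, 0.0540 and 0.118) and without Gclc KO 1, 3 or 4 (limma adjusted p = 0.102, 0.0884 and 0.0914), and was kept without Gclc KO 2 (limma adjusted p = 0.00582). Adding the Xist level as a covariate also ended it (limma adjusted p = 0.0574), as did the cohort of the mouse tags as a term (limma adjusted p = 0.0544), whereas it was made among the 5 mice without Xist (log2 fold change −2.68, limma adjusted p = 0.00831).

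Cyp8b1 (Entrez 13124), the enzyme that directs synthesis towards cholic acid, was 119, 104, 118 and 207 TPM in Gclc WT mice and 23.3, 85.4, 0.738 and 11.0 TPM in Gclc KO mice. All Gclc KO mice were below all Gclc WT mice, and Gclc KO 3 was almost devoid of the transcript. The mean went from 137 ± 47.1 to 30.1 ± 38.0 TPM (SD, n = 4 each). Cyp8b1 fell by 3.20 on the log2(TPM + 1) scale (SE 0.95, limma adjusted p = 0.0403), the largest fall among the 10 members. This call was made in 13 of 25 alternative settings. It was lost without Gclc WT 1, 2, 3 or 4 (limma adjusted p = 0.0855, 0.0818, 0.0527 and 0.101) and without Gclc KO 1 or 4 (limma adjusted p = 0.0620 and 0.0925), and the fold change without single mice lay between −4.07 and −2.19. With Xist as a covariate the adjusted p was 0.0574 (limma), and among the 5 mice without Xist it was 0.00452 (limma, log2 fold change −3.02).

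Cyp7a1 and Cyp8b1 shared the Gclc KO mouse with the highest level, Gclc KO 2, and the one with the lowest, Gclc KO 3. Whether Cyp8b1 fell further than Cyp7a1 was asked with the ratio of both genes within each mouse. The log2 ratio of Cyp8b1 to Cyp7a1 was 1.21, 0.45, 0.89 and 0.53 in Gclc WT mice and 1.17, 0.27, −1.18 and −0.39 in Gclc KO mice. The difference of −0.81 was within the spread between mice (exact permutation test, p = 0.2, adjusted p = 0.229 over both ratios tested). Of the 8 analyses with 1 mouse left out, only that without Gclc KO 1 passed (difference −1.21, exact permutation test, p = 0.0286), and without Gclc KO 3 the difference was −0.42 (exact permutation test, p = 0.429).

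The promoter of Cyp8b1 is shown because this gene had the largest fall, and that of Cyp27a1 because it belongs to the same pathway and was not called. RefSeq windows on GRCm38.p6 were matched by symbol for 4 of the 10 members, Akr1d1, Cyp27a1, Cyp8b1 and Hsd3b7, and the 250 bases before the start are printed 5′ to 3′ on the strand of the gene. Capitals mark motif matches.
Cyp8b1, chr9:121916306-121916555, minus strand: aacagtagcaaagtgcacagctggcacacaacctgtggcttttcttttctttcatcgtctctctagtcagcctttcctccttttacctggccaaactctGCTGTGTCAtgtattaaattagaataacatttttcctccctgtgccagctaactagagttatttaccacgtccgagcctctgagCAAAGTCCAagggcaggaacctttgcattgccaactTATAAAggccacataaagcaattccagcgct
Cyp27a1, chr1:74713285-74713534, plus strand: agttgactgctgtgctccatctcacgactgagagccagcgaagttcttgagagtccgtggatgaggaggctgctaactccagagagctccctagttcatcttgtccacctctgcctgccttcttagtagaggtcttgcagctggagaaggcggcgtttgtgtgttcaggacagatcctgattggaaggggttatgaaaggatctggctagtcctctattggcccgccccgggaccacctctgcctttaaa
The Cyp8b1 window held a TATA box (TATAAA) at −31 relative to the transcription start, the letters of an antioxidant response element core on the opposite strand at −151, and an HNF4 site at −67. The HNF4 motif was added to the search after the windows had been seen. On both strands, 13.6% of 32851 RefSeq windows of 300 bases held TATAAA, 12.4% the antioxidant response element core (TGACNNNGC) and 0.475% the HNF4 site (CAAAGTCCA). Akr1d1 had the nuclear receptor core site (AGGTCA, here on the opposite strand and read as TGACCT) in 2 places, a motif held by 16.3% of windows. No match was found in the Cyp27a1 and Hsd3b7 windows, nor any match in the 4 windows for the LRH-1 site (TCAAGGNCA, in 1.62% of windows), the direct repeat (0.0396%) or inverted repeat (0.00913%) of AGGTCA with 1 base between, which contain that site, or the HNF1 site (0.00913%). A match describes letters and not a bound factor, and no match says only that these letters are not in the window.

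The ring-modifying enzymes moved less than Cyp7a1 and Cyp8b1. Hsd3b7 (Entrez 101502), which oxidizes the first ring, was 253, 237, 236 and 272 TPM in Gclc WT mice and 194, 115, 148 and 225.5 TPM in Gclc KO mice. Akr1d1 (Entrez 208665), which reduces the ring system to its bent form, was 120.5, 149.6, 210.0 and 116 TPM in Gclc WT mice and 107, 112, 69.2 and 77.1 TPM in Gclc KO mice. Every Gclc KO mouse was below every Gclc WT mouse for both genes, although the gaps between the genotypes were small. The log2 fold changes were −0.59 for Hsd3b7 (SE 0.20, limma adjusted p = 0.0590) and −0.69 for Akr1d1 (SE 0.22, limma adjusted p = 0.0537), neither past the threshold. Each was called in 5 of 25 alternative settings. Scaling by the median of ratios called both (limma adjusted p = 0.0240 for Hsd3b7 and 0.0274 for Akr1d1), as did a minimum of 10 TPM (limma adjusted p = 0.0499 and 0.0449). Adjustment for the Xist level called Akr1d1 lower (log2 fold change −0.76, limma adjusted p = 0.0372) and did not call Hsd3b7 (−0.48, limma adjusted p = 0.0512). Both fold changes were smaller among the 5 mice without Xist, at −0.28 for Hsd3b7 (limma adjusted p = 0.158) and −0.49 for Akr1d1 (limma adjusted p = 0.102).

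The alternative routes did not follow one direction. Cyp39a1 (Entrez 56050), an oxysterol hydroxylase with a preference for the cholesterol metabolite that brain releases, was 15.6, 9.45, 31.1 and 14.4 TPM in Gclc WT mice and 88.4, 42.0, 153 and 174 TPM in Gclc KO mice. It was the lowest of the members in Gclc WT livers (17.7 ± 9.36 TPM) and reached 114.3 ± 60.4 TPM in Gclc KO livers (SD, n = 4 each), with no overlap between the genotypes. Cyp39a1 rose by 2.56 on the log2(TPM + 1) scale (SE 0.46, 95% interval 1.53 to 3.59, limma adjusted p = 0.00573), which is 5.89-fold. The call was made in all 25 alternative settings, with fold changes from 2.06 to 3.17.

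Cyp27a1 (Entrez 104086), the mitochondrial side chain hydroxylase, was 317, 398, 438.5 and 446 TPM in Gclc WT mice and 562, 409, 420.2 and 645 TPM in Gclc KO mice. Gclc KO 1 and 4 were above all Gclc WT mice and Gclc KO 2 and 3 were among them, giving a log2 fold change of 0.33 (SE 0.18, 95% interval −0.08 to 0.74, limma adjusted p = 0.224). Gclc KO 1 and 4 are the Gclc KO mice without Xist, and limma on the 5 mice lacking Xist called Cyp27a1 higher (log2 fold change 0.65, limma adjusted p = 0.0429). In these 5 mice 72.4% of the calls over all genes were higher, against 59.7% in the reported analysis.

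Cyp7b1 (Entrez 13123), the oxysterol hydroxylase of the main alternative route, is known in mouse liver for higher expression in males. It was 445, 438, 107 and 334 TPM in Gclc WT mice and 416, 81.6, 96.6 and 383.5 TPM in Gclc KO mice. The low values were those of Gclc WT 3, Gclc KO 2 and Gclc KO 3, the mice with Xist, and the other mice of both genotypes were at 334 TPM or above. The log2 fold change was −0.61 with a wide interval (−2.03 to 0.81, limma adjusted p = 0.521). With Xist as a covariate it was −0.10, and among the 5 mice without Xist it was −0.01. The log2 ratio of Cyp7b1 to Cyp7a1 within a mouse, which sets the alternative against the classic route, was 0.75 to 3.10 in Gclc WT mice and 5.27, 0.20, 4.63 and 4.62 in Gclc KO mice 1 to 4. Gclc KO 2 was below every Gclc WT mouse and the others above them, and the difference of 1.78 did not pass (exact permutation test, p = 0.229). Without Gclc KO 2 the difference was 2.94 (exact permutation test, p = 0.0286). Gclc KO 2 is the mouse that goes against the others, so no conclusion is drawn from this p. With any other single mouse left out the difference was 1.26 to 2.19 (exact permutation tests, p = 0.2 to 0.4).

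**Figure D2:**
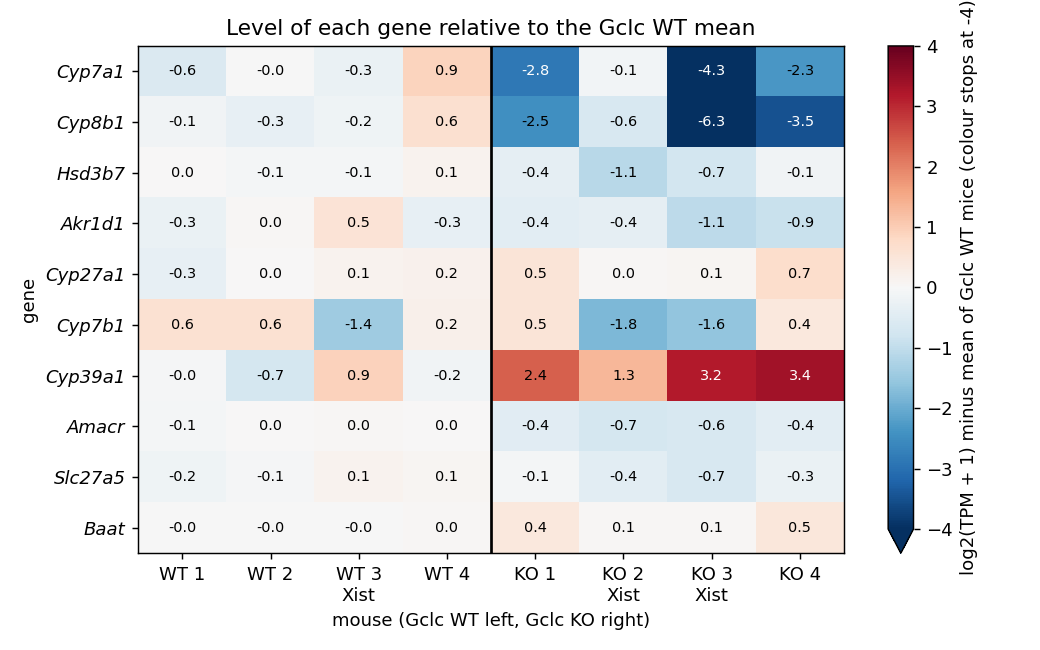
Level of each member in each mouse relative to the mean of the Gclc WT mice, as a difference in log2(TPM + 1), with genes in rows and mice in columns. Blue is below and red above the Gclc WT mean, and the colour stops at −4 while the printed value does not. Cyp7a1 and Cyp8b1 were lowest in Gclc KO 3 (−4.3 and −6.3), Cyp39a1 was above the mean in all Gclc KO mice, and Cyp7b1 was low in the mice marked Xist.

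Of the enzymes after the ring steps, the racemase fell and the enzymes of conjugation did not pass the test. Amacr (Entrez 17117), which converts the side chain into the form that peroxisomal oxidation accepts, was 86.9, 93.0, 94.5 and 92.0 TPM in Gclc WT mice and 67.0, 55.3, 58.0 and 67.9 TPM in Gclc KO mice. The mean went from 91.6 ± 3.28 to 62.0 ± 6.34 TPM (SD, n = 4 each), a narrow spread in both genotypes. Amacr fell by 0.56 on the log2(TPM + 1) scale (SE 0.10, limma adjusted p = 0.00672), and the call was made in all 25 alternative settings, with a fold change of −0.42 among the 5 mice without Xist. This fall was smaller in size than the estimates for Cyp7a1 and Cyp8b1, with a far smaller spread between mice.

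Slc27a5 (Entrez 26459), the bile acid coenzyme A ligase, was the most abundant member in Gclc WT livers at 529, 570.3, 649 and 626 TPM, and was 565, 439.7, 375 and 493 TPM in Gclc KO mice. Gclc KO 1 lay within the Gclc WT range and the other Gclc KO mice below it (log2 fold change −0.35, SE 0.15, limma adjusted p = 0.123). It was called lower in 2 of 25 alternative settings, both of them scalings (limma adjusted p = 0.0375 with the median of ratios and 0.0342 with the trimmed mean of M values). Among the 5 mice without Xist its log2 fold change was −0.12 (limma adjusted p = 0.556). Baat (Entrez 12012), the amino acid conjugating enzyme, was 209.5, 213, 212 and 221 TPM in Gclc WT mice and 287, 222, 223 and 294 TPM in Gclc KO mice. Gclc KO 2 and 3 were barely above the highest Gclc WT mouse and Gclc KO 1 and 4 clearly so (log2 fold change 0.25, SE 0.13, limma adjusted p = 0.191). Among the 5 mice without Xist Baat was called higher (log2 fold change 0.44, limma adjusted p = 0.0305), where 72.4% of the calls over all genes were higher.

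On the length-corrected TPM scale, as far as the values are TPM, the members ranked by mean level in Gclc WT livers as Slc27a5 (593), Cyp27a1 (400.1), Cyp7b1 (331), Hsd3b7 (249.5), Baat (214), Akr1d1 (149), Cyp8b1 (137), Amacr (91.6), Cyp7a1 (83.4) and Cyp39a1 (17.7). The ranges over mice of neighbours in this order overlapped except between Slc27a5 and Cyp27a1, Hsd3b7 and Baat, Cyp8b1 and Amacr, and Cyp7a1 and Cyp39a1. In Gclc KO livers Cyp39a1 (114.3 TPM) stood above Akr1d1 (91.3), Amacr (62.0), Cyp8b1 (30.1) and Cyp7a1 (24.6).

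The falls of Cyp7a1 and Cyp8b1 were of like size in both batches of the labels, whose meaning is not given. Both batches held libraries of the same mice, so their likeness is technical and does not replicate the result in other mice. The log2 fold change of Cyp7a1 was −2.38 in batch 1 (limma adjusted p = 0.0509) and −2.42 in batch 2 (limma adjusted p = 0.0621). That of Cyp8b1 was −3.11 in batch 1 (limma adjusted p = 0.0488) and −3.31 in batch 2 (limma adjusted p = 0.0516). Cyp39a1 was at 2.56 in both and Amacr at −0.52 and −0.60, called in each batch.

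**Figure D3:**
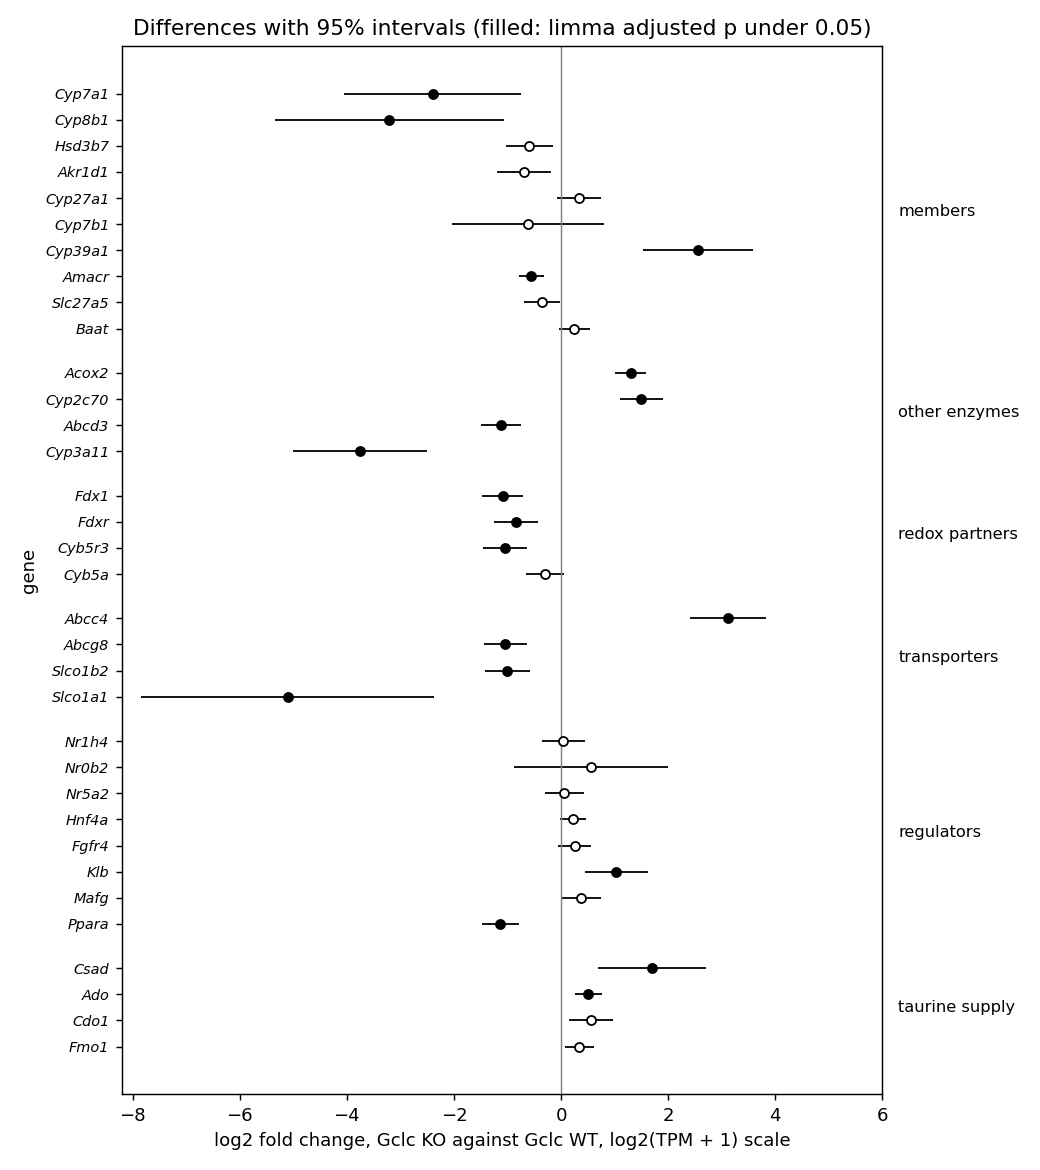
Log2 fold change of Gclc KO against Gclc WT on the log2(TPM + 1) scale with 95% intervals from limma, for the members and for the named genes of related lists, filled where the adjusted p was under 0.05. The intervals of Cyp7a1 and Cyp8b1 are wide and that of Amacr narrow, and those of Nr1h4, Nr0b2 and Nr5a2 span 0.

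Other enzymes of bile acid synthesis and hydroxylation fell more often than they rose. Of 13 tested, 2 were higher and 7 lower, with a median log2 fold change of −0.99, beside 12.8% higher and 8.61% lower over all genes. The lower count was 5 to 7 with single mice left out. This and the following lists were chosen with earlier results of these data known. Their counts describe the lists and test nothing. Cyp2c70, which makes the muricholic acids typical of mice, rose from 487 ± 69.7 to 1392 ± 294 TPM (n = 4 each, log2 fold change 1.5, limma adjusted p = 0.00112). Acox2, the peroxisomal oxidase that opens side chain shortening, rose from 97.6 ± 9.53 to 242 ± 34.5 TPM (n = 4 each, log2 fold change 1.30, limma adjusted p = 0.000531). Other genes of peroxisomal side chain shortening fell. Abcd3, which carries bile acid intermediates into peroxisomes, went from 338 ± 60.3 to 155 ± 25.2 TPM (limma adjusted p = 0.00267), Scp2 from 1857 ± 549.5 to 721 ± 97.8 TPM (limma adjusted p = 0.00706) and Hsd17b4 from 290.0 ± 26.9 to 207 ± 35.0 TPM (limma adjusted p = 0.0378). Cyp3a11, which hydroxylates bile acids and many drugs, fell from 5170 ± 1386 to 504 ± 426.5 TPM (log2 fold change −3.75, limma adjusted p = 0.00267). Slc27a2, Akr1c6 and Akr1c14 also fell. The call of Hsd17b4 was made in 16 and that of Akr1c14 in 19 of 25 alternative settings. Cyp3a, Akr1c, Sult2a, Acot and Acnat genes have close copies, and the sources used here do not say how shared reads were assigned.

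The electron donors of mitochondrial cytochromes P450 fell although Cyp27a1, which uses them, was not called. Fdx1, which encodes ferredoxin, was 109, 109.6, 73.0 and 117 TPM in Gclc WT mice and 49.7, 48.0, 37.5 and 53.4 TPM in Gclc KO mice, with no overlap (log2 fold change −1.09, limma adjusted p = 0.00346). Its reductase Fdxr went from 10.1 ± 2.34 to 5.18 ± 1.08 TPM (limma adjusted p = 0.0127), and Cyb5r3, the reductase of cytochrome b5, from 301 ± 33.6 to 148 ± 38.4 TPM (limma adjusted p = 0.00539). Cyb5a (log2 fold change −0.30, limma adjusted p = 0.202) and Por, the donor of the microsomal enzymes Cyp7a1 and Cyp8b1 (log2 fold change 0.18, limma adjusted p = 0.434), were not called. Thus 3 of 5 were lower and none higher, beside 8.61% lower and 12.8% higher over all genes.

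Among 14 bile acid and sterol transporters tested, 2 rose and 5 fell, the first close to the 12.8% and the second above the 8.61% of all genes. The lower count was 2 without Gclc WT 2 or Gclc WT 4, and the higher count was 4 without Gclc WT 3 and 1 without Gclc WT 1, Gclc WT 2, Gclc KO 1 or Gclc KO 4. Both that rose export bile acids from hepatocytes into blood. Abcc4 was 1.33, 3.15, 3.16 and 1.96 TPM in Gclc WT mice and 31.8, 14.1, 29.6 and 43.0 TPM in Gclc KO mice (log2 fold change 3.11, limma adjusted p = 0.000542), and Abcc3 went from 118.5 ± 21.7 to 189.6 ± 36.9 TPM (limma adjusted p = 0.0265). The uptake carrier Slco1b2 fell from 724 ± 49.7 to 370 ± 104 TPM (limma adjusted p = 0.00642), as did Slco1a1, Slco1a4 and the sterol exporters Abcg5 and Abcg8. The call of Abcg5 was lost in many settings, among them either batch alone, Xist as a covariate and the mice without Xist. That of Slco1a4 was lost without Gclc WT 2, Gclc WT 4 or Gclc KO 1. Slco1a1 was 80.1, 161, 0.820 and 143 TPM in Gclc WT mice and 0.165 to 0.388 TPM in Gclc KO mice, with the low Gclc WT value in the mouse with Xist (log2 fold change −5.11, limma adjusted p = 0.0185). This call was lost without Gclc WT 1, 2 or 4 (limma adjusted p = 0.0545, 0.0574 and 0.0538). Slc10a1, the main uptake carrier of conjugated bile acids (637 ± 25.7 and 551 ± 133 TPM, limma adjusted p = 0.377), and Abcb11, the canalicular bile acid pump (171 ± 17.5 and 130 ± 29.7 TPM, limma adjusted p = 0.121), were not called. For Abcb11, however, every Gclc KO mouse was below every Gclc WT mouse. It was called lower with scaling by the median of ratios or the trimmed mean of M values.

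Regulators of the pathway were mostly not called, with 1 of 18 higher and 1 lower, beside 12.8% higher and 8.61% lower over all genes. The lower count was 2 with scaling by the median of ratios or the trimmed mean of M values, where Nr1h3 joined Ppara. It was also 2 among the mice without Xist and without Gclc WT 3, where Onecut1 joined Ppara. Nr1h3 was 68.4 ± 4.74 and 52.7 ± 8.64 TPM with no overlap between the genotypes (limma adjusted p = 0.0659). Klb, the co-receptor through which the gut hormone FGF15 lowers Cyp7a1, rose from 14.4 ± 3.42 to 31.6 ± 12.7 TPM (n = 4 each, log2 fold change 1.03, limma adjusted p = 0.0243). The call was lost without Gclc WT 1, Gclc WT 2, Gclc KO 1 or Gclc KO 3 (limma adjusted p = 0.0636, 0.0624, 0.0505 and 0.0518), which left no regulator higher, while Klb, Mafg and Prox1 were higher without Gclc WT 3. Its partner Fgfr4 was 14.9 ± 2.21 and 18.0 ± 2.53 TPM (limma adjusted p = 0.212). Ppara, a receptor that senses fatty acids, fell from 86.2 to 104 TPM in Gclc WT mice to 35.6 to 58.2 TPM in Gclc KO mice (log2 fold change −1.14, limma adjusted p = 0.00175). The bile acid receptor Nr1h4 (FXR) was 101 ± 21.1 and 104 ± 17.7 TPM (limma adjusted p = 0.883, 95% interval of the log2 fold change −0.36 to 0.45), and Nr5a2 (LRH-1), an activator of Cyp7a1 and Cyp8b1, was 21.8 ± 5.60 and 22.2 ± 1.04 TPM (limma adjusted p = 0.834, interval −0.31 to 0.42). The sign of both fold changes turned with the scaling. Hnf4a (log2 fold change 0.22, limma adjusted p = 0.169) and Mafg (log2 fold change 0.37, limma adjusted p = 0.135) were not called. Fgf15 and Gpbar1 were listed at 0 in all 8 mice.

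Nr0b2 (SHP), which FXR induces and which represses Cyp7a1 and Cyp8b1, was 45.0, 15.7, 47.5 and 6.22 TPM in Gclc WT mice and 38.3, 12.2, 44.7 and 52.1 TPM in Gclc KO mice (log2 fold change 0.56, SE 0.64, limma adjusted p = 0.568). Gclc WT 4 and Gclc KO 2 had the lowest Nr0b2 and the highest Cyp7a1 and Cyp8b1 level of their genotype. This was noticed after the values were seen and was not tested.

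Genes that supply taurine, the amino acid that Baat uses in mice, rose in 2 of 7 cases and none fell, with a median log2 fold change of 0.34, where 12.8% of all genes rose. The count was 1 without Gclc WT 2, Gclc KO 1, Gclc KO 2 or Gclc KO 4, each of which ended the call of Csad, and 4 without Gclc WT 3 (Csad, Ado, Cdo1 and Fmo1). Among the mice without Xist only Fmo1 was called, and neither Csad (limma adjusted p = 0.107) nor Ado was. With Xist as a covariate Ado, Cdo1 and Csad were called higher and Cth lower. Csad, which makes hypotaurine from cysteine sulfinate, was 34.2, 94.3, 67.3 and 213 TPM in Gclc WT mice and 293, 264, 223 and 310 TPM in Gclc KO mice (log2 fold change 1.70, limma adjusted p = 0.0264). Ado, which makes hypotaurine from cysteamine, rose from 5.59 ± 0.740 to 8.31 ± 0.159 TPM (limma adjusted p = 0.0138). Cdo1, which provides cysteine sulfinate, was 1475 ± 213 and 2177 ± 443 TPM with no overlap between the genotypes (log2 fold change 0.55, limma adjusted p = 0.0602).

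Markers of some other cells and states moved with genotype, and their part in the member results was not tested. The counts stand beside 12.8% higher and 8.61% lower over all genes tested. Of 10 Kupffer cell markers 5 were higher and 0 lower, with a summed level of 300.5 to 823 TPM in Gclc WT mice and 864 to 1448 TPM in Gclc KO mice. Of 14 acute phase genes 9 were higher and 0 lower, with sums of 13980 to 100500 TPM in Gclc WT mice and 59850 to 246700 TPM in Gclc KO mice, highest in Gclc KO 2, with Gclc WT 3 within the Gclc KO range. Of 11 genes of pericentral hepatocytes, the zone in which bile acid synthesis is known to be strongest, 0 were higher and 9 lower, with sums of 11380 to 16370 TPM in Gclc WT mice and 2478 to 6483 TPM in Gclc KO mice. Periportal genes were higher in 1 and lower in 4 of 10 cases, with sums of 6055 to 10850 and 6600 to 7402 TPM. Of 5 cholangiocyte markers tested Sox9 was higher, with sums of 26.6 to 93.7 and 40.4 to 79.4 TPM, while Epcam and Cftr were under 1 TPM on average. Of 7 general hepatocyte markers 1 was higher and 0 were lower, with sums of 72320 to 101300 and 89910 to 157500 TPM. The marker that was higher, Fgb, was also counted among the acute phase genes. Exocrine pancreas markers summed to 324 TPM in Gclc WT 1 and to at most 37.3 TPM in the other mice, and 0 of 8 were higher and 1 lower. Endothelial markers were higher in 1 and lower in 1 of 5 cases, and stellate cell markers higher in 0 and lower in 1 of 6. Of 3 neutrophil and monocyte markers and 1 lymphocyte marker tested, 0 were called. The sums of these last lists overlapped between the genotypes.

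**Figure D4:**
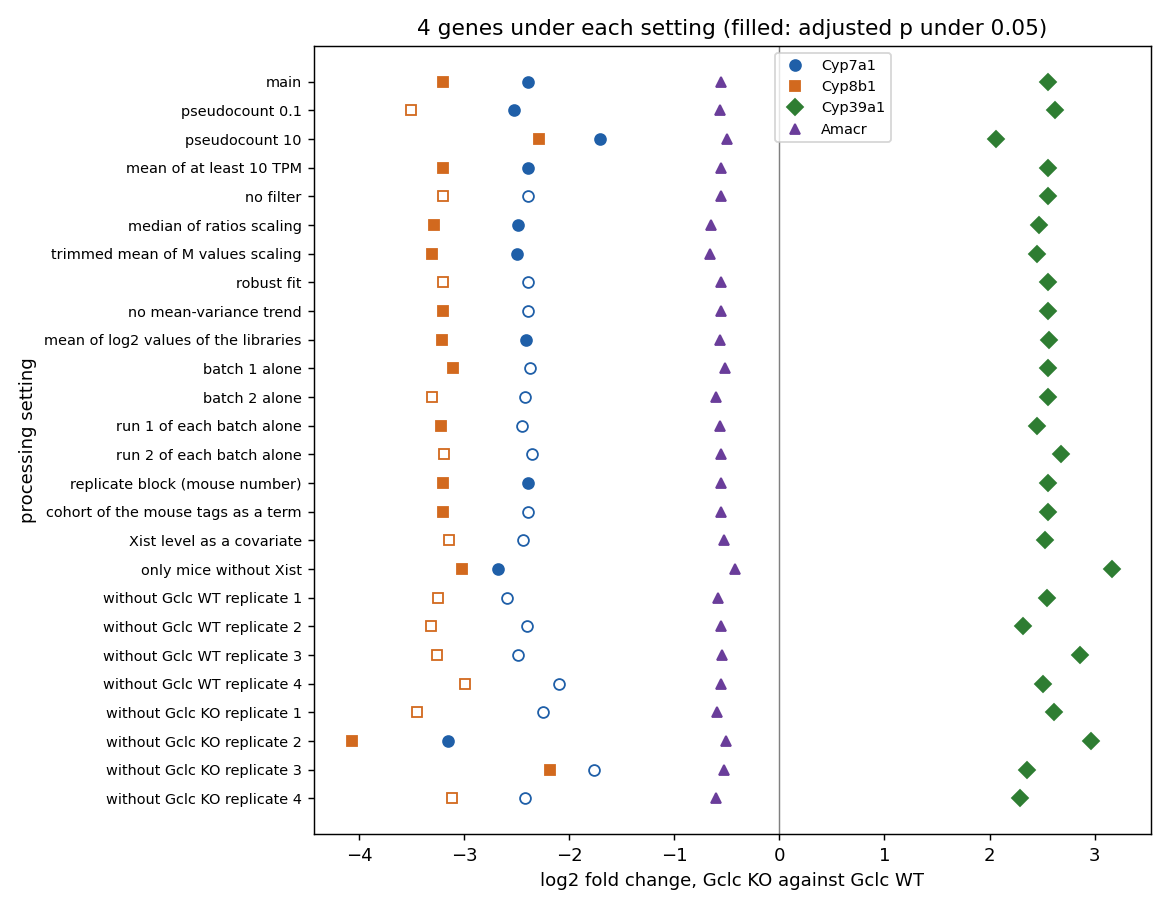
Log2 fold change of Cyp7a1, Cyp8b1, Cyp39a1 and Amacr in the reported analysis and in each of 25 alternative settings, filled where the limma adjusted p was under 0.05. All points keep their side of 0. Cyp39a1 and Amacr are filled throughout, whereas Cyp7a1 is filled in 9 and Cyp8b1 in 13 alternative settings.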

How the data were processed

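Liver RNA was extracted with a PureLink kit, and directional libraries of mRNA were built with a Kapa kit. The authors deposited 1 table, named as normalized counts and taken here as TPM because its library totals were 999315 to 999534 and its low values had no shared step, for 32 libraries, 4 from each of 8 mice, told apart by batch and run numbers whose meaning is not given. The submitters' processing notes name bcl2fastq 2.2. The aligner, quantifier, genome build and annotation of the table were not given in the sources used here. A slightly higher tamoxifen dose than that of the labels stands in the study's text. Of 20896 rows, 75 repeated a symbol with identical values and were left out, which left 20821 symbols. No pair of libraries was identical.

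The libraries of a mouse were averaged as technical repeats. The genotype effect was estimated by limma 3.58.1 (R 4.3.3), two-sided, with a mean-variance trend and no covariate, on log2(TPM + 1), which understates changes of low genes. Genes averaging 1 TPM or more over the mice were tested, 11284 in all. P-values were adjusted by Benjamini-Hochberg over these genes, at a threshold of 0.05. Single members and within-mouse ratios were also compared by exact permutation over mice. The fit was tested on simulated data. The members and lists were chosen with earlier results of these data known. Text named all members, Gclc, 7 regulators (Nr0b2, Nr1h4, Nr5a2, Hnf4a, Fgfr4, Klb and Mafg) and up to 4 genes per related list by smallest adjusted p. Scp2, Hsd17b4, Slc27a2, Akr1c6, Akr1c14, Por, Abcc3, Slc10a1, Abcb11, Slco1a4, Abcg5, Fgf15 and Gpbar1 were named after their values were seen. So were Nr1h3, Onecut1, Cth and Fgb. The 25 alternatives covered the pseudocount, filter, scaling, fit, batches, runs, replicate block, mouse tags, Xist and each mouse left out. Count models were not used, because no counts were recovered from TPM.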

Additional observations from a re-analysis of the deposited data

Results flagged for a closer look

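Of 94 sets of 4 values from 1 genotype, 6 (6.38%) held a single outlying mouse on the log2(TPM + 1) scale, where chance gives about 5%. Gclc WT 3, the Gclc WT mouse with Xist, accounted for 4 of them, and also had higher sums of acute phase, Kupffer cell and neutrophil and monocyte genes than the other Gclc WT mice (100500, 823 and 447.5 TPM). It was at 6.21 for Fdx1, with the remaining Gclc WT mice at 6.78 to 6.88. For Slco1a1 it was at 0.864, against 6.34 to 7.34. For the sulfotransferase Sult2a8 it was at 8.05, against 9.74 to 9.89. For the related Sult2a2 it was at 9.73, whereas the gene was listed at 0 in the other Gclc WT mice. Hnf4a was at 8.64 in Gclc KO 1, with the remaining Gclc KO mice at 8.77 to 8.79. The log2 ratio of Cyp7b1 to Cyp7a1 was 0.201 in Gclc KO 2, with the remaining Gclc KO mice at 4.62 to 5.27, as this mouse combined a low Cyp7b1 level of 81.6 TPM with the highest Cyp7a1 level among Gclc KO mice, 70.8 TPM.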

How the results depend on the processing

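Cyp39a1 and Amacr kept their call and direction in all 25 alternatives. Among member fold changes, 208 results kept their side of the threshold, 14 newly passed it and 28 no longer did, and none changed direction. The number of members lower was 3 in the reported analysis, 5 with a minimum of 10 TPM, 6 with scaling by the median of ratios or the trimmed mean of M values, and 1 without a filter, with a robust fit, in batch 2 alone or in run 2 alone. It was 1 to 4 with single mice left out. The number higher was 1, but 3 in the mice without Xist (Gclc WT 1, 2 and 4 and Gclc KO 1 and 4). In these mice 1756 genes were higher and 668 lower, with a median log2 fold change of 0.169 against 0.087 in the reported analysis. Over all genes, the reported analysis had 1439 higher and 972 lower. The counts were 1242 and 1412 with the median of ratios and 1190 and 1474 with the trimmed mean of M values. These scalings lowered the median log2 fold change by less than 0.1. With single mice left out, 698 to 1851 were higher and 557 to 950 lower. The higher count was 942, 698 and 814 without Gclc WT 1, 2 and 4 and 890 and 857 without Gclc KO 1 and 4, and the lower count was 557 without Gclc WT 2 and 638 without Gclc KO 3. The difference in the ratio of Cyp8b1 to Cyp7a1 was −1.21 to −0.424 and that of Cyp7b1 to Cyp7a1 1.256 to 2.945 with single mice left out. The sign turned for Nr1h4, to −0.046 with the median of ratios, −0.06 with the trimmed mean, −0.088 without Gclc WT 3 and −0.023 without Gclc KO 2, within a range up to 0.173 with single mice left out. It also turned for Nr5a2, to −0.031 and −0.045 with these scalings, −0.006 in run 1, −0.008 with Xist as a covariate and −0.073 without Gclc WT 1, within a range up to 0.203. The cause of these shifts was not tested.

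The labels do not say that a replicate number marks a shared litter, day or batch, although mice of the same number had neighbouring tags and numbers 3 and 4 formed a cohort by tag. With that cohort as a term 2 members were lower (Cyp8b1 and Amacr), and the call of Cyp7a1 was lost (limma adjusted p = 0.0544). The correlation of their deviations was 0.0623, −0.12, 0.345 and 0.26 for numbers 1 to 4, and not every mouse correlated best with its own number. With the replicate block 4 members were lower (Cyp7a1, Cyp8b1, Amacr and Hsd3b7) and 1 higher, with 1341 genes higher and 874 lower over all genes. Depth is unknown, so no counting error can be given for low values such as Cyp8b1 in Gclc KO 3. With 4 mice a genotype, the wide spread of Cyp7a1 and Cyp8b1 among Gclc KO mice left their calls near the threshold.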

Other observations

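Sulfation of bile acids, a route of detoxification, showed falls in 2 of 7 genes tested and no rise, beside 8.61% lower and 12.8% higher over all genes. However, Sult2a1 and Sult2a2 were called higher with the replicate block, with Xist as a covariate, among the mice without Xist and without Gclc WT 3. Sult2a8, a bile acid sulfotransferase of mouse liver, was 922, 951, 265 and 852 TPM in Gclc WT mice and 19.4, 5.30, 1.12 and 9.90 TPM in Gclc KO mice, with no overlap (log2 fold change −6.50, SE 0.66, limma adjusted p = 0.000531). Papss2, which makes the sulfate donor, fell from 185 ± 61.6 to 51.3 ± 11.5 TPM (n = 4 each, log2 fold change −1.80, limma adjusted p = 0.00165). Sult2a2 was listed at 0 in Gclc WT 1, 2 and 4 and was 850.3 TPM in Gclc WT 3, and was 136, 773, 678 and 153 TPM across Gclc KO mice 1 to 4, highest in the mice with Xist in each genotype and not called (limma adjusted p = 0.0632). It was called higher in 5 of 25 alternative settings, among them the mice without Xist (limma adjusted p = 3.5e-06) and the analysis without Gclc WT 3 (limma adjusted p = 7.6e-05).

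Of 6 genes related to Baat in sequence that were tested, 1 rose and 1 fell, beside 12.8% higher and 8.61% lower over all genes. Acnat2, an acyltransferase of the same family, was 12.7, 5.43, 127 and 7.12 TPM in Gclc WT mice and 203, 207, 291 and 288 TPM in Gclc KO mice (log2 fold change 3.81, SE 0.80, limma adjusted p = 0.0107), called in all 25 alternative settings. Acot1, a cytosolic acyl-CoA thioesterase, fell from 23.8 ± 15.0 to 2.91 ± 2.42 TPM (n = 4 each, limma adjusted p = 0.0158), a call that was lost without Gclc WT 2 (limma adjusted p = 0.0510). The low Gclc WT level of Acot1, 5.19 TPM, and the high one of Acnat2 were both in Gclc WT 3.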
